A study of Caenorhabditis elegans with 30 samples.

Results

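The mitochondrial genome of Caenorhabditis elegans encodes cytochrome b (CYTB), cytochrome c oxidase subunits 1 to 3 (COX1, COX2 and COX3) and subunit 6 of the ATP synthase (ATP6). These 5 genes were chosen by their identifiers from the 46911 worm genes of the count table, and all 5 passed the filter on low counts. They are 5 of the 12 protein-coding genes of that genome, whose other 7 encode subunits of complex I. Their messenger RNA was followed in starved larvae held in arrest at the first larval stage (L1), in a double mutant and in wild type.

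Poly(A)-selected RNA of whole larvae was sequenced from strain LRB444, which carries irld-39(duk1) and irld-52(duk17) and is called irld here, and from the wild-type strain N2. Both mutated genes belong to a family with receptor L-domains. Cultures were bleached and kept at 20 °C in buffer without food. Pools of larvae were frozen once arrest had lasted 6, 12, 24, 48 or 72 h, that is 18, 24, 36, 60 or 84 h from the bleach, and each of the 10 groups had 3 biological replicates. All groups were starved, so no fed larvae serve as a baseline, and the 6 h group of each strain was taken as its baseline for time. The strain comparison asks whether loss of the 2 irld genes alters the transcriptome during starvation, and the time comparison asks how it changes as arrest goes on.

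Respiration passes electrons along complexes in the inner mitochondrial membrane and uses the resulting proton gradient to make ATP. Complex III, complex IV and the ATP synthase are each built from many nuclear-encoded subunits and a few that are made inside the mitochondrion. The mitochondrial subunits form the membrane-embedded core of these complexes, and their genes are transcribed together in long precursors from which the single messengers are cut.

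All 5 genes lie on the plus strand of the mitochondrial chromosome (MtDNA) of the WBcel235 assembly, each as 1 exon in the Ensembl 115 annotation. ATP6 (WBGene00010960) spans 2634 to 3235 and shares 2 bases with the end of ND1. CYTB (WBGene00000829) spans 4504 to 5621, and COX3 (WBGene00010962) follows it at 5678 to 6449 beyond a transfer RNA gene. COX1 (WBGene00010964) spans 7827 to 9428 and shares 7 bases with a transfer RNA gene, and COX2 (WBGene00010965) lies downstream at 9649 to 10348. Between COX1 and COX2 the genome holds only transfer RNA genes, and COX2 is followed by a transfer RNA gene and the large ribosomal RNA gene. The coding sequences are 1110 bases for CYTB, 1575 for COX1, 693 for COX2, 765 for COX3 and 597 for ATP6. None of the 22 mitochondrial transfer RNA genes had a count in any library.

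Total counts on worm genes were 7563687 to 19815884 per library, with a median of 9650171. The 5 mRNAs together took 0.957% to 1.89% of these, and the lowest count of any of them in a library was 6301, for COX2 in N2 replicate 3 at 72 h. Each of 8 larval tissue markers was detected in all 30 libraries. Of the adult markers, 4 major sperm protein genes were at 0 in 13 to 28 of the 30 libraries, and 6 yolk protein genes reached at most 20.98 CPM, for vit-1. The mutated genes had too few counts to check the strain labels, with 30 counts in irld and 38 in N2 for irld-39, and 59 in irld and 82 in N2 for irld-52, summed over 15 libraries each. In whole larvae, fewer cells of a type and less RNA per cell cannot be told apart.

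**Figure D1:**
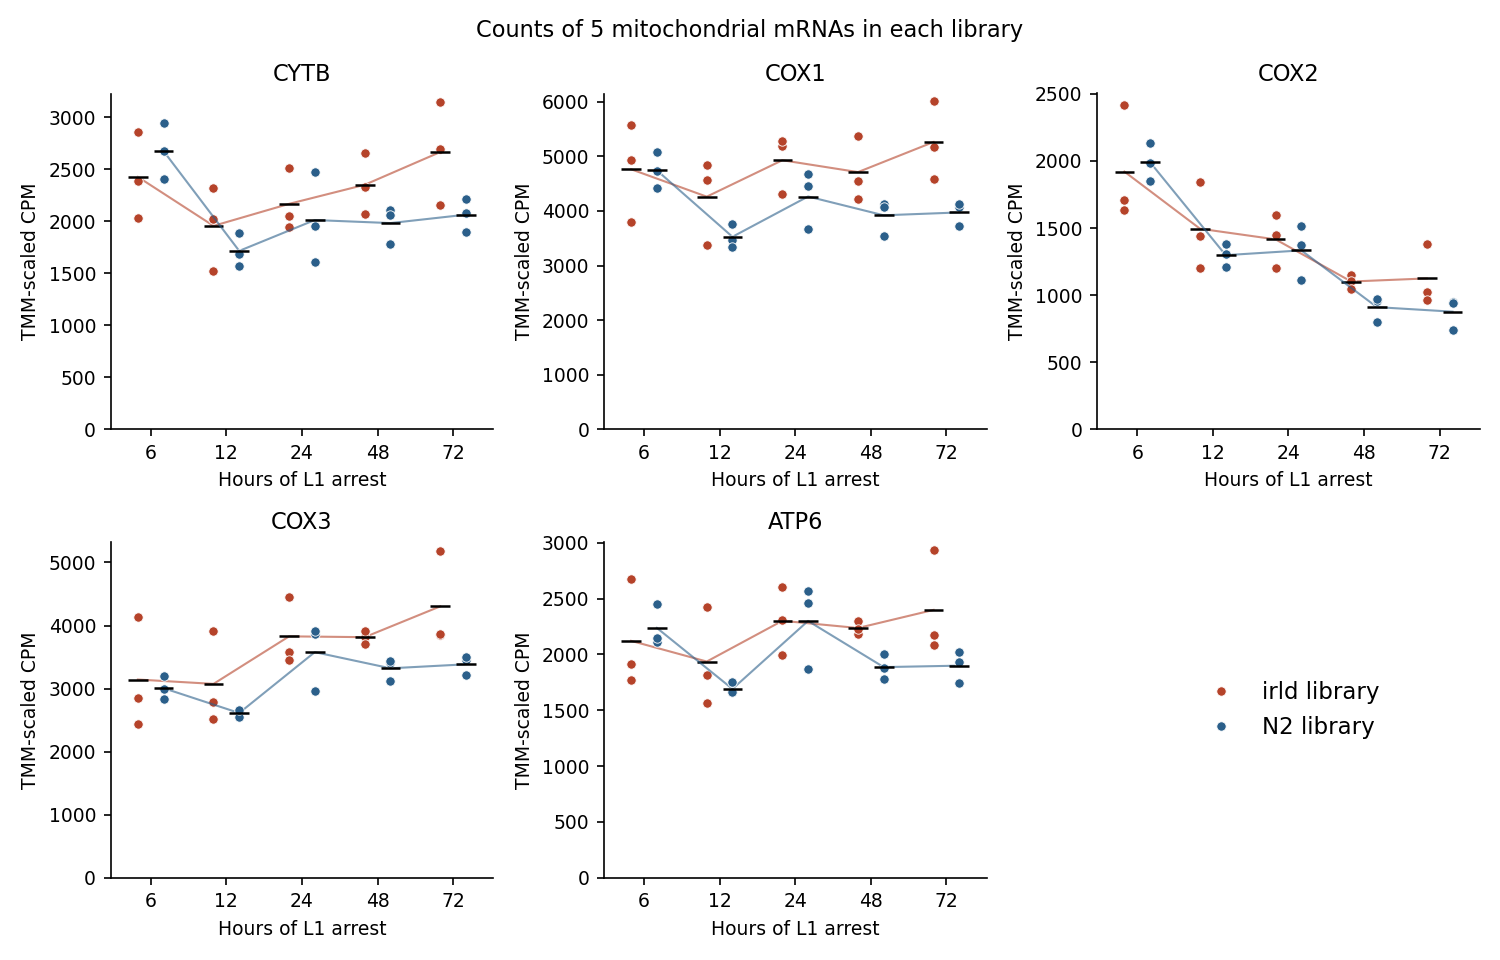
Each panel shows 1 mRNA, with hours of L1 arrest on the x axis and TMM-scaled CPM (counts relative to the library total) on the y axis. Points are single libraries (irld left, N2 right, 3 per group), and black bars joined by lines are group means. The mean of COX2 ends at 1124 CPM in irld and 877 CPM in N2 at 72 h. At 48 and 72 h the irld points of ATP6, COX1, COX2 and COX3 lie above all N2 points, as for 3.71% and 4.18% of tested genes. No gene was called between the strains.

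Levels are given as CPM, the count relative to the library total, after TMM scaling, which sets libraries to a common level by most of their genes. How evenly poly(A) selection recovered the 5 mRNAs, and whether that changed with time, was not tested. Per kilobase of coding sequence the order of the 3 most abundant of the 5 mRNAs was the same in most libraries. COX3 was the most abundant, with 4454 CPM per kilobase on average over the 30 libraries, followed by ATP6 with 3519, COX1 with 2816, CYTB with 1984 and COX2 with 1943. COX3 exceeded COX1, CYTB and COX2 in 30 of 30 libraries and ATP6 in 28 of 30. ATP6 exceeded COX1 in 29 of 30 libraries, and CYTB was below ATP6, COX1 and COX3 in all 30. The 2 lowest changed places with time: CYTB was above COX2 per kilobase in 0 of 12 libraries at 6 and 12 h, in 2 of 6 at 24 h and in 12 of 12 at 48 and 72 h. Neighbours in the order had overlapping ranges in irld at 6 and 12 h for every step, whereas in irld at 48 h and in N2 at 12, 48 and 72 h no neighbouring ranges overlapped.

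CYTB is cytochrome b, a haem-bearing subunit of complex III and the only one of that complex encoded in the mitochondrion. At 6 h it had 2864, 2031 and 2388 CPM in irld libraries, against 2678, 2945 and 2404 CPM in N2 libraries. At 12 h it had 2318, 1524 and 2028 CPM in irld libraries, against 1888, 1685 and 1575 CPM in N2 libraries. In N2 the 3 values at 12 h lay below all 3 at 6 h, which held for each of the 5 mRNAs and for 18.0% of tested genes. At 24 h the values were 2511, 2050.0 and 1945 CPM in irld libraries, against 2474, 1607 and 1958 CPM in N2 libraries. The strains overlapped at each of these times. At 48 h CYTB had 2654, 2335 and 2066 CPM in irld libraries, against 2108, 2063 and 1779.8 CPM in N2 libraries, and at 72 h it had 2696, 3149 and 2157 CPM in irld libraries, against 2212, 2079.8 and 1903 CPM in N2 libraries. The irld library of replicate 3 fell within the N2 range at both late times, and the other 2 irld libraries lay above it.

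Over time CYTB was called lower in N2 at 12 h (log2 difference from 6 h of −0.64 ± 0.18 SE, adjusted p = 0.0278 in edgeR's quasi-likelihood test with Benjamini-Hochberg adjustment over 15508 genes). It was called lower again at 48 h (−0.43 ± 0.18, adjusted p = 0.0466). At 24 h the N2 value was −0.41 ± 0.18 and at 72 h −0.37 ± 0.18, and neither passed (adjusted p = 0.0719 and 0.0776). The 3 N2 libraries at 48 h and at 72 h lay below all 3 at 6 h, as for 32.6% and 34.5% of tested genes. In irld the change at 72 h was 0.14 ± 0.18 (adjusted p = 0.552). When a replicate number or a single library was left out, the 12 h value in N2 stayed between −0.70 and −0.55, but with fewer libraries it passed the test in 1 of 9 such fits (adjusted p from 0.0389 to 0.300 in edgeR). The 48 h value stayed between −0.49 and −0.30 and passed in 0 of 9 (adjusted p from 0.0604 to 0.288). With the replicate number as a block, the 12 h value was −0.65 ± 0.14 (adjusted p = 0.00474). The block also called CYTB in N2 at 24 h (−0.42 ± 0.14, adjusted p = 0.0198 in edgeR) and 72 h (−0.38 ± 0.14, adjusted p = 0.0267). The numbers were not taken as pairs in those 2 comparisons. Here and below, the block gave each number a single effect shared by irld and N2.

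COX1 is the catalytic subunit of cytochrome c oxidase, where oxygen is reduced. At 6 h it had 5566, 3792 and 4929.8 CPM in irld libraries, against 4413, 5087 and 4729 CPM in N2 libraries, with every N2 value inside the irld range. At 12 h it had 4837, 3376 and 4570.1 CPM in irld libraries, against 3759.6, 3471 and 3348 CPM in N2 libraries, and at 24 h 5196, 4315 and 5273 CPM in irld libraries, against 4676, 3660.2 and 4456 CPM in N2 libraries. At both times 2 of the 3 N2 libraries lay inside the irld range. At 48 h it had 5368, 4543 and 4221 CPM in irld libraries, against 4133, 4078 and 3549 CPM in N2 libraries, and at 72 h 5176, 6017 and 4592 CPM in irld libraries, against 4065, 4127 and 3724 CPM in N2 libraries. At 48 and 72 h all 3 irld libraries lay above all 3 N2 libraries, as for 3.71% and 4.18% of tested genes.

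From 6 to 72 h COX1 changed by 0.14 ± 0.15 in irld (95% interval −0.17 to 0.46, adjusted p = 0.462) and −0.26 ± 0.15 in N2 (−0.57 to 0.06, adjusted p = 0.165). Neither passed the test, and no earlier time was called for COX1 in either strain. The 3 N2 libraries at 48 h and at 72 h lay below all 3 at 6 h, as for 32.6% and 34.5% of tested genes. With the replicate number as a block, the 12 h value in N2 of −0.43 ± 0.14 passed (adjusted p = 0.0485 in edgeR).

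COX2 carries the copper site that takes electrons from cytochrome c. It was the mRNA of the 5 that changed most with time, and it fell in both strains. At 6 h it had 2418, 1636 and 1706 CPM in irld libraries, against 1984, 2135 and 1850.4 CPM in N2 libraries. At 12 h it had 1847, 1199.9 and 1438 CPM in irld libraries, against 1380.0, 1304 and 1209 CPM in N2 libraries. At 24 h it had 1596, 1447 and 1203 CPM in irld libraries, against 1514, 1109 and 1376 CPM in N2 libraries. The strains overlapped at these 3 times. At 48 h it had 1151, 1106 and 1047 CPM in irld libraries, against 959, 974 and 798 CPM in N2 libraries, and at 72 h 1023, 1384 and 966 CPM in irld libraries, against 951, 939.5 and 739 CPM in N2 libraries. At both late times the irld libraries were all above the N2 libraries, as for 3.71% and 4.18% of tested genes. Each strain's libraries were then all below its own at 6 h. Being all below 6 h held for 27.1% of tested genes at 48 h and 28.9% at 72 h in irld, and for 32.6% and 34.5% in N2.

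At 72 h COX2 averaged 1124 ± 227 CPM in irld, against 1920.3 ± 433 CPM in irld at 6 h (SD, n = 3 each). In N2 it averaged 877 ± 119.4 CPM at 72 h, against 1990.0 ± 142 CPM at 6 h (SD, n = 3 each). The log2 difference from 6 h was −0.77 ± 0.18 in irld (adjusted p = 0.000793) and −1.18 ± 0.18 in N2 (adjusted p = 4.74e-06), both in edgeR's quasi-likelihood test. At 48 h it was −0.80 ± 0.18 in irld (adjusted p = 0.000666) and −1.13 ± 0.18 in N2 (adjusted p = 1.19e-05).

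Earlier in arrest COX2 was called lower in N2 at 12 h (−0.62 ± 0.17, adjusted p = 0.0329) and 24 h (−0.58 ± 0.17, adjusted p = 0.0118). In irld the 12 h value was −0.36 ± 0.17 (adjusted p = 0.269) and that of 24 h was −0.44 ± 0.17 (adjusted p = 0.0575), neither of which passed. With the replicate number as a block, the irld value at 24 h was −0.44 ± 0.15 and was called (adjusted p = 0.0237 in edgeR). The test for a strain difference that varies with time did not call COX2. In 9 fits that left out a replicate number or a library, the 12 h value in N2 stayed between −0.65 and −0.56, and none of them called it (adjusted p from 0.0564 to 0.298). With the replicate block it was −0.62 ± 0.15 (adjusted p = 0.00856). The 24 h call was lost in 4 of 9, with −0.36 without replicate 2, −0.58 without replicate 3, −0.47 without the N2 library of replicate 2 at 6 h and −0.41 without that at 24 h.

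The fall at 72 h in irld was −0.45 and not called without replicate 1 (adjusted p = 0.0709 in edgeR) and −1.01 without replicate 2, while the N2 fall stayed between −1.25 and −1.05. Scaled on the spike-in RNA, the values at 72 h were −2.47 in irld (adjusted p = 0.0497) and −1.49 in N2 (adjusted p = 0.373).

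COX3 is the third core subunit of the oxidase and holds no redox centre. At 6 h it had 4132, 2852 and 2446 CPM in irld libraries, against 2835, 2991 and 3194 CPM in N2 libraries. At 12 h it had 3911, 2526 and 2787 CPM in irld libraries, against 2631, 2545 and 2663 CPM in N2 libraries, and at 24 h 4453, 3575 and 3457 CPM in irld libraries, against 3865, 2956 and 3913 CPM in N2 libraries. The strains overlapped at 6, 12 and 24 h. At 48 h COX3 had 3815, 3919 and 3712 CPM in irld libraries, against 3399, 3438 and 3128 CPM in N2 libraries, and at 72 h 3857, 5187 and 3869 CPM in irld libraries, against 3448, 3498 and 3209 CPM in N2 libraries. At these late times all irld libraries lay above all N2 libraries, as for 3.71% and 4.18% of tested genes.

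COX3 was called higher at 72 h than at 6 h in irld (0.45 ± 0.17, adjusted p = 0.0326). In N2 its difference was 0.17 ± 0.17 (adjusted p = 0.424), although the 3 N2 libraries at 72 h were above the 3 at 6 h, as for 27.1% of tested genes. In irld the 72 h libraries overlapped those of 6 h, where replicate 1 had 4132 CPM. The irld call was lost in 5 of 9 fits that left out a replicate number or a library, and the value ran from 0.28 without replicate 2 to 0.83 without replicate 1. The other losses came without replicate 3 (0.43, adjusted p = 0.174 in edgeR), without replicate 2 or 3 at 6 h (0.44 and 0.34), and without replicate 2 at 72 h (0.29).

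ATP6 is the membrane subunit of the ATP synthase that forms part of the proton channel. At 6 h it had 2673, 1775 and 1916 CPM in irld libraries, against 2112, 2450.3 and 2149 CPM in N2 libraries. At 12 h it had 2425, 1564 and 1819 CPM in irld libraries, against 1749, 1659 and 1664 CPM in N2 libraries, with 2 irld libraries above the N2 range and 1 below it. At 24 h it had 2603, 2308 and 1991 CPM in irld libraries, against 2568, 1869 and 2461 CPM in N2 libraries. At 48 h it had 2295, 2183 and 2231 CPM in irld libraries, against 1875, 2003 and 1781 CPM in N2 libraries, and at 72 h 2175, 2938 and 2082 CPM in irld libraries, against 1929, 2020.3 and 1748 CPM in N2 libraries. The strains overlapped through 24 h. At 48 and 72 h irld lay wholly above N2, as for 3.71% and 4.18% of tested genes. The change of ATP6 from 6 to 72 h was 0.18 ± 0.17 in irld (adjusted p = 0.404) and −0.24 ± 0.17 in N2 (adjusted p = 0.247). It was called at no time in either strain. The 3 N2 libraries at 48 h and at 72 h lay below all 3 at 6 h, as for 32.6% and 34.5% of tested genes. The irld value ran from −0.06 to 0.51 over 9 fits that left out a replicate number or a library, 1 of which called it.

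Counted over the 5 mRNAs, 2 were called at 72 h against 6 h in irld, COX3 higher and COX2 lower, where 46.6% of all tested genes were called in either direction. In N2 only COX2 was called at 72 h, where 51.1% of genes were. At 48 h 1 of the 5 was called lower in irld, where 3711 genes (23.9%) were called lower and 2800 higher. In N2 at 48 h 2 were called lower, where 3970 genes were called lower and 3100 higher (45.6% in either direction). At 24 h 0 were called in irld, against 30.6% of genes, and 1 in N2, against 34.2%. At 12 h 0 were called in irld, against 4.34% of genes, and 2 in N2, against 6.21%. With the replicate number as a block, 1157 genes and 0 of the 5 were called at 12 h in irld, against 673 genes without it. In N2 at 12 h the block gave 1550 genes and 3 of the 5, against 963 genes and 2 of the 5 without it. All later times of a strain share its 6 h libraries. Over all 5 times together, COX2 was called in irld (adjusted p = 0.00202, where 43.1% of genes were called), and COX2 and CYTB in N2 (adjusted p = 1.13e-05 and 0.038, where 49.6% were called). Without replicate 3 none of the 5 was called in irld by this test.

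The direction of ATP6, COX1 and CYTB in irld, and of COX3, depended on how libraries were scaled. As a plain share of all worm gene counts, the 5 mRNAs together made up 1.34 ± 0.22% in irld at 72 h, against 1.67 ± 0.20% in irld at 6 h (SD, n = 3 each). In N2 they made up 1.01 ± 0.07% at 72 h, against 1.74 ± 0.08% at 6 h (SD, n = 3 each). With library size alone the median of all tested genes also moved, to −0.59 in irld and −0.63 in N2 from 6 to 72 h, compared with −0.13 in irld and −0.11 in N2 under TMM scaling. On that scale all 5 mRNAs were called lower in N2 at 72 h, COX3 among them at −0.35, where 7212 of 15508 genes were called lower. In irld COX1, COX2 and CYTB were called lower, where 6818 genes were. COX2 was lower at 72 h in both strains under each of 12 other settings, and was called in each of them apart from the spike-in scaling of N2.

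**Figure D2:**
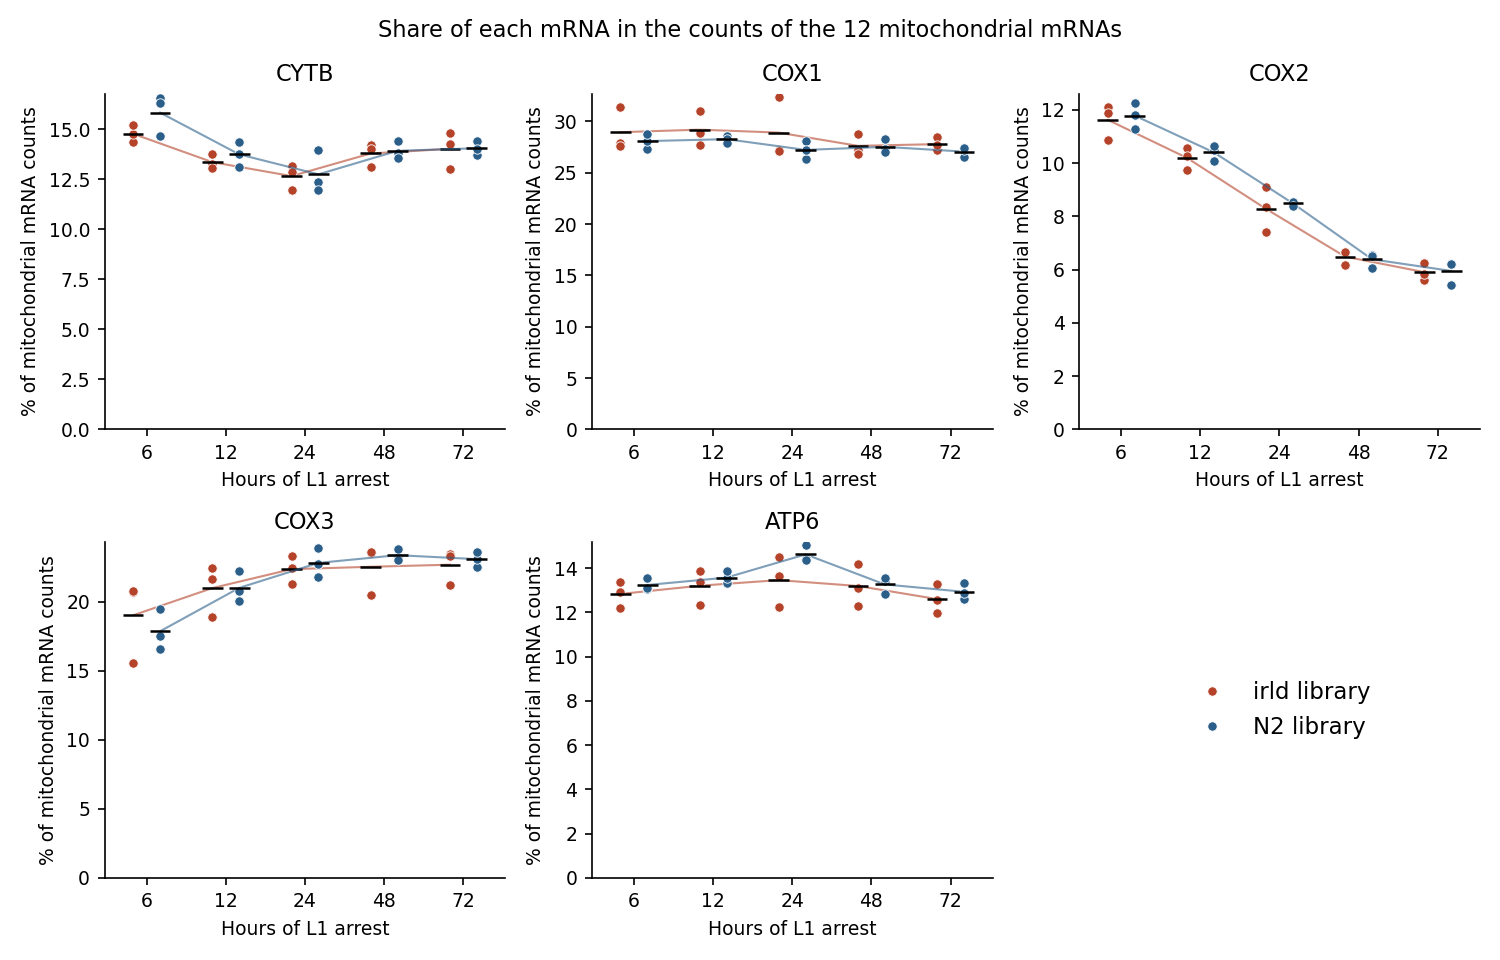
Each panel shows 1 mRNA, with hours of L1 arrest on the x axis and its percentage of the summed counts of the 12 mitochondrial mRNAs on the y axis. Points are single libraries (irld left, N2 right), and black bars joined by lines are group means. The mean of COX2 is 5.90% in irld and 5.95% in N2 at 72 h, that of COX3 is 22.7% in irld and 23.1% in N2, and the points of the strains overlap at every time.

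A share of the mitochondrial mRNA does not depend on that scaling. COX2 made up 5.90 ± 0.326% of the counts of the 12 mitochondrial mRNAs in irld at 72 h, against 11.6 ± 0.667% in irld at 6 h (SD, n = 3 each). In N2 it made up 5.95 ± 0.443% at 72 h, against 11.8 ± 0.499% at 6 h (SD, n = 3 each). The irld libraries held 12.12, 11.9 and 10.9% at 6 h, while 10.6, 10.3 and 9.76% was their share at 12 h. They held 8.36, 9.09 and 7.40% at 24 h, then 6.17, 6.64 and 6.65% by 48 h, and finally 5.62, 6.26 and 5.83% by 72 h. The N2 libraries held 12.3, 11.8 and 11.3% at 6 h, while 10.5, 10.6 and 10.1% was their share at 12 h. They held 8.53, 8.53 and 8.40% at 24 h, then 6.56, 6.52 and 6.08% by 48 h, and finally 6.21, 6.20 and 5.44% by 72 h. In each strain the mean share was lower at every later time, and no 2 of the first 4 times overlapped. The strains overlapped at all 5 times.

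The share of COX3 had a higher mean at 72 h in both strains. It was 22.7 ± 1.27% in irld at 72 h, against 19.01 ± 2.97% in irld at 6 h (SD, n = 3 each). In N2 the share was 23.1 ± 0.556% at 72 h, against 17.9 ± 1.48% at 6 h (SD, n = 3 each). COX1 kept close to its starting share, at 27.8 ± 0.622% in irld at 72 h against 28.95 ± 2.12% at 6 h, and 27.1 ± 0.463% in N2 at 72 h against 28.1 ± 0.762% at 6 h. ATP6 stood at 12.6 ± 0.667% in irld and 12.9 ± 0.374% in N2 at 72 h. CYTB had its lowest mean at 24 h in both strains, with 12.7 ± 0.625% in irld and 12.7 ± 1.05% in N2, and stood at 14.03 ± 0.928% in irld and 14.1 ± 0.358% in N2 at 72 h.

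Changes in these shares were tested by refitting edgeR with libraries scaled to the summed mitochondrial mRNA, a scaling chosen after the data had been seen. COX2 fell by this measure in irld (−0.98 ± 0.10 on the log2 scale from 6 to 72 h, adjusted p = 1.45e-08) and in N2 (−0.99 ± 0.10, adjusted p = 6.29e-09). COX3 was called higher in N2 (0.37 ± 0.11, adjusted p = 0.00607), and in irld its value was 0.25 ± 0.11 (adjusted p = 0.0551). COX1, CYTB and ATP6 were called in neither strain at 72 h, with values of −0.08 to −0.03 in irld and −0.17 to −0.03 in N2. On this scale 29.4% of all genes were called lower in irld and 19.2% in N2, and 14.8% were called higher in irld and 26.7% in N2.

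The ratio of COX2 to COX1 per kilobase, neighbours on the genome with only transfer RNA genes between them, was 0.483 ± 0.037 in irld at 72 h, against 0.918 ± 0.114 in irld at 6 h (SD, n = 3 each). In N2 the ratio was 0.500 ± 0.043 at 72 h, against 0.955 ± 0.066 at 6 h (SD, n = 3 each). The ranges of 6 and 72 h did not overlap in either strain. In 3 irld libraries, those of replicate 3 at 6, 12 and 24 h, singled out after their values were seen, COX1 stood high against COX3 per kilobase, with ratios of 0.979, 0.796 and 0.741. In N2 the same ratio was at most 0.826 at 6 h, 0.694 at 12 h and 0.601 at 24 h. The COX1 shares of these 3 libraries were 31.4%, 31.01% and 32.4%, above the 28.9% that no other library exceeded.

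**Figure D3:**
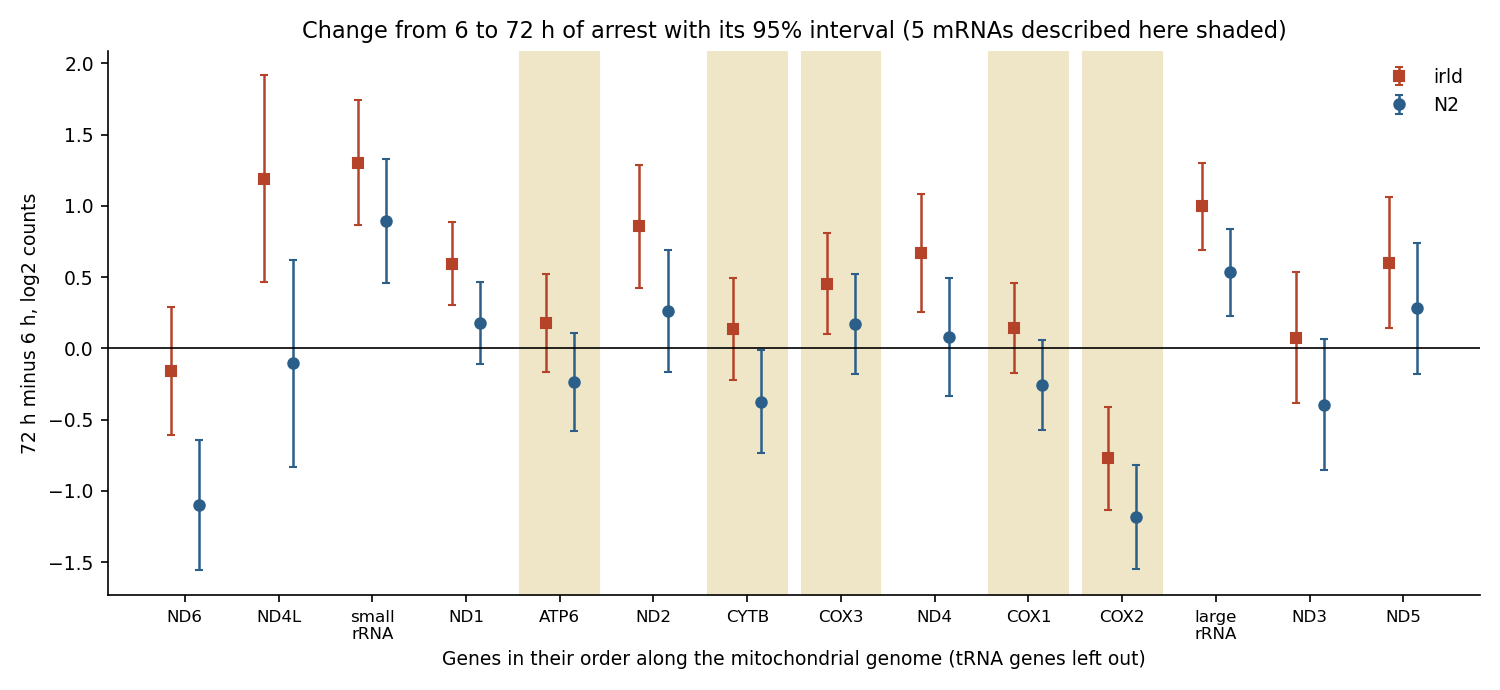
The 14 mitochondrial mRNAs and ribosomal RNAs stand in genome order on the x axis, and the y axis is the log2 difference of 72 h from 6 h with its 95% interval (squares irld, circles N2). The 5 genes described here are shaded. COX2 is the lowest of the 14 in irld at −0.77 and in N2 at −1.18, while its neighbour the large ribosomal RNA lies at 1.00 in irld and 0.53 in N2.

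Both ribosomal RNAs of the mitochondrial genome rose from 6 to 72 h in both strains, although poly(A) selection makes their level uncertain. Among the 7 complex I mRNAs, 5 were called higher and 0 lower at 72 h in irld, with a median log2 change of 0.60. In N2, 0 were called higher and 1 lower, with a median of 0.08. Of all tested genes, 20.6% were called higher and 26% lower in irld, and 23.1% higher and 27.9% lower in N2. Scaled to the summed mitochondrial mRNA, 4 of the 7 were called higher and 0 lower in irld, and 3 higher and 1 lower in N2, with medians of 0.40 in irld and 0.28 in N2. On neither scale was a difference between irld and N2 in this change called for any of the 7. The one called lower in N2 was ND6, with −1.10 ± 0.22 (adjusted p = 0.00019), where the irld value was −0.16 ± 0.22. ND3 had 0.08 ± 0.22 in irld and −0.39 ± 0.22 in N2, neither called. The median change of the 5 genes described here was 0.14 in irld and −0.26 in N2, and that of all tested genes −0.13 in irld and −0.11 in N2.

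**Figure D4:**
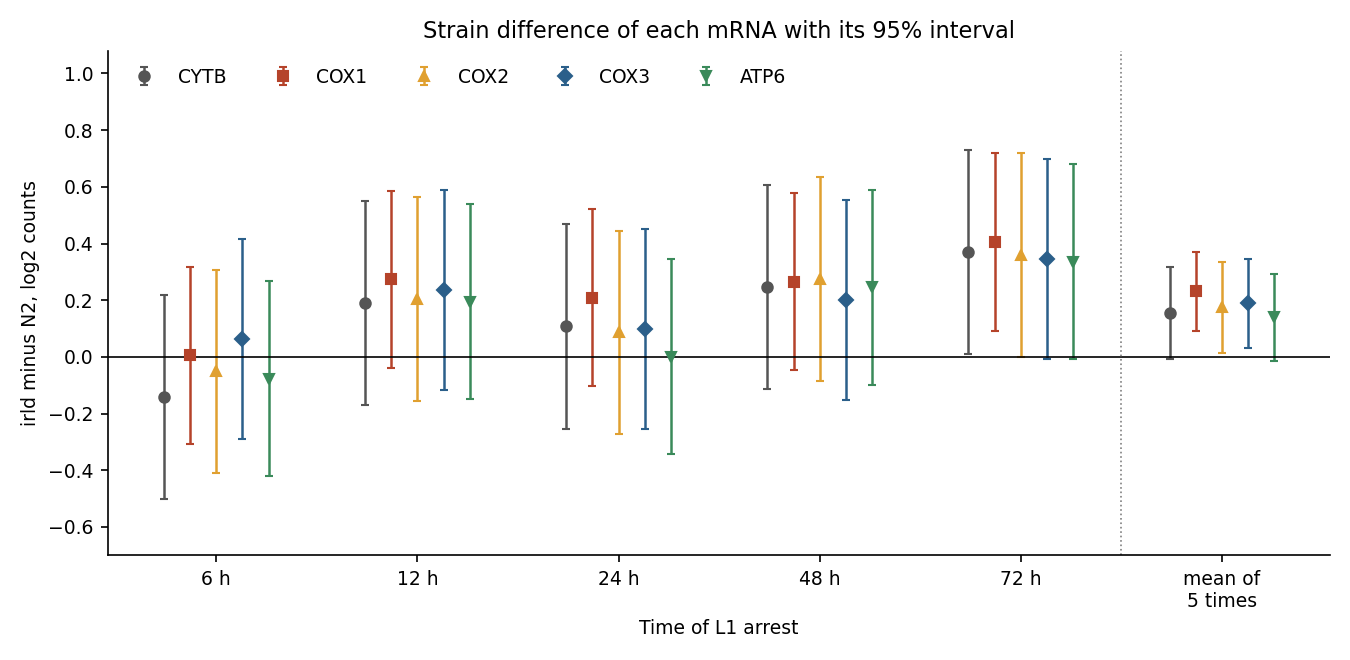
The x axis gives the time of arrest and, right of the dotted line, the mean over 5 times. The y axis is irld minus N2 in log2 counts, and each symbol is 1 mRNA with its 95% interval. All 5 values are between 0.34 and 0.41 at 72 h, and no strain difference passed the adjusted threshold.

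The strain comparison gave 0 called genes of 15508 at each time in edgeR. An unadjusted p under 0.05 was reached by 171 genes (1.10%) at 6 h and 229 (1.48%) at 12 h, 345 (2.22%) at 24 h, 427 (2.75%) at 48 h and 446 (2.88%) at 72 h, among them CYTB and COX1 at 72 h. At 72 h the differences between irld and N2 were 0.37 ± 0.18 for CYTB, 0.41 ± 0.15 for COX1, 0.36 ± 0.17 for COX2, 0.35 ± 0.17 for COX3 and 0.34 ± 0.17 for ATP6 (log2, SE, each with adjusted p = 1.00 in edgeR). All 5 were positive, where the median of all tested genes was 0.01. The 7 complex I mRNAs were positive as well, from 0.23 to 0.84 with a median of 0.40. So were the small and large mitochondrial ribosomal RNAs, at 0.20 and 0.35. The 95% interval for COX1 was 0.09 to 0.72. At this time 4 of the 5, all but CYTB, had all 3 irld libraries above all 3 N2 libraries, as did 4.18% of tested genes. At 48 h the same held for the same 4 genes and for 3.71% of tested genes, with differences of 0.20 to 0.27.

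At 6, 12 and 24 h the differences were smaller than at 72 h or mixed in sign. They ran from −0.14 to 0.06 at 6 h, from 0.19 to 0.27 at 12 h and from 0.00 to 0.21 at 24 h, and for none of the 5 were the strains separate there. Averaged over the 5 times, COX1 was 0.23 ± 0.07 higher in irld on the log2 scale (95% interval 0.09 to 0.37, adjusted p = 0.916 in edgeR). The other means were 0.19 ± 0.08 for COX3, 0.17 ± 0.08 for COX2, 0.15 ± 0.08 for CYTB and 0.14 ± 0.07 for ATP6. None of 15508 genes was called on this mean by edgeR, DESeq2 or limma-voom, and 837 (5.40%) had an unadjusted p under 0.05, COX1, COX2 and COX3 among them.

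The change from 6 to 72 h differed between irld and N2 by 0.51 ± 0.25 for CYTB, 0.41 ± 0.24 for ATP6, 0.41 ± 0.25 for COX2, 0.40 ± 0.21 for COX1 and 0.28 ± 0.24 for COX3 on the log2 scale. None passed the adjusted threshold in edgeR (adjusted p = 1.00 each), and 0 of all genes did, with 303 (1.95%) at an unadjusted p under 0.05. A test for any change of the strain difference over the 5 times called 0 genes as well, with 0.767% at an unadjusted p under 0.05. In the authors' deposited table the 5 mRNAs had log2 fold changes of irld over N2 at 72 h between 0.33 and 0.40, although for that time the table gives no p-value of its own. Its 1 p-value per gene covers the strain differences at all 5 times together, and among the 5 mRNAs in the authors' deposited table it was lowest for COX1, at 0.0504 with an FDR of 1.00.

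Single libraries and the scaling moved the strain differences. In irld at 72 h replicate 2 was the highest library for all 5 mRNAs, and in N2 at 72 h replicate 3 was the lowest for all 5. Leaving out a replicate number or a library gave 0.16 to 0.43 for ATP6, 0.23 to 0.50 for CYTB, 0.19 to 0.42 for COX3, 0.29 to 0.49 for COX1 and 0.18 to 0.46 for COX2, none called. Spike-in counts were 0.606%, 4.04% and 3.26% of worm counts in the irld libraries at 72 h and 0.443%, 3.30% and 2.18% in the N2 libraries. Scaled on the spike-in, which was added in proportion to total RNA, the differences at 72 h were −0.02 to −0.18 and the median of all genes was −0.40. Relative to the summed mitochondrial mRNA, the differences averaged over the 5 times were −0.05 to 0.04. The 5 mRNAs make up most of that sum. A shift common to all 5 therefore largely cancels on this scale and cannot be judged from it.

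The nuclear partners of these subunits were compared over the same interval, where 20.6% of all tested genes were called higher and 26% lower in irld, and 23.1% higher and 27.9% lower in N2. With so few genes a list, these shares are the background to each count that follows, and no list was tested against them. Of 7 nuclear complex IV subunits, 3 were called higher and 0 lower at 72 h in irld, and 3 higher and 0 lower in N2. Those called higher included cox-4, with 0.84 ± 0.14 in irld and 0.93 ± 0.14 in N2, and cox-6A, with 0.66 ± 0.13 in irld and 0.85 ± 0.13 in N2. All 4 of these changes passed the test, and both proteins join COX2 in the same complex. The median of the 7 was 0.18 in irld and 0.30 in N2.

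Of 11 tested subunits of complex III and cytochrome c, 3 were called higher and 3 lower in irld, and 3 higher and 3 lower in N2. Those called higher included ucr-2.1, a core protein, with 0.70 ± 0.16 in irld and 0.95 ± 0.16 in N2, and isp-1, the Rieske iron-sulphur protein, with 0.64 ± 0.15 in irld and 0.73 ± 0.15 in N2. Their median was 0.10 in irld and −0.09 in N2. Of 16 nuclear ATP synthase genes, 5 were called higher and 4 lower in irld, and 6 higher and 2 lower in N2. Their median was −0.27 in irld and 0.02 in N2. Under TMM scaling, those called higher included mai-1, an inhibitor of the ATPase, with 1.23 ± 0.23 in irld and 1.62 ± 0.23 in N2. They also included asb-1, a subunit b gene, with 0.56 ± 0.19 in irld and 0.72 ± 0.19 in N2. Scaled to the summed mitochondrial mRNA instead, 2 of the 16 were called higher and 7 lower in irld, and 7 higher and 0 lower in N2.

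Of 9 tested assembly factors of complexes III and IV, 2 were called higher and 2 lower in irld, and 2 higher and 1 lower in N2, with medians of −0.11 in irld and −0.04 in N2. The copper chaperone sco-1, whose yeast and human relatives deliver copper to COX2, fell by 1.30 ± 0.20 in irld (adjusted p = 9.02e-06) and by 1.17 ± 0.20 in N2 (adjusted p = 2.61e-05). The haem A synthase gene cox-15 rose by 0.57 ± 0.14 in irld (adjusted p = 0.00179) and by 0.43 ± 0.14 in N2 (adjusted p = 0.0143), where COX1 is the subunit that binds haem A. Of 8 tested genes that maintain or express the mitochondrial genome, 5 were called higher and 1 lower in irld, and 4 higher and 2 lower in N2, with medians of 0.58 in irld and 0.55 in N2. The mitochondrial RNA polymerase gene rpom-1 rose by 1.65 ± 0.17 in irld (adjusted p = 2.88e-08) and 1.66 ± 0.17 in N2 (adjusted p = 2.07e-08), and mma-1, a relative of human LRPPRC, by 1.19 ± 0.18 in irld and 1.07 ± 0.18 in N2. Against N2, irld had 0 called genes in any of these lists.

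Markers of larval tissues moved over the same interval: of 8, 1 was called higher and 5 lower at 72 h in irld, and 1 higher and 4 lower in N2, with medians of −0.71 in irld and −0.66 in N2. The 8 together took 1.05% to 1.44% of worm gene counts in irld at 72 h, against 1.035% to 1.502% in irld at 6 h, and 1.17% to 1.32% in N2 at 72 h, against 1.01% to 1.60% in N2 at 6 h. The ranges of their sum at 6 and 72 h overlapped in both strains. The neuronal gene rab-3 changed by −0.79 ± 0.18 in irld and −0.91 ± 0.18 in N2. The hypodermal gene dpy-7 changed by −2.32 ± 0.75 in irld and −4.19 ± 0.84 in N2. Of 3 tested yolk protein genes, 0 were called higher and 1, vit-1, lower in each strain. The part of these shifts in the mitochondrial values was not tested.

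The 5 mRNAs followed one another unequally over the 10 group means of log2 CPM, which share their libraries and scaling. ATP6 and COX1 had the highest Pearson's r, 0.90, and COX3 and COX2 the lowest, −0.39. Of 5043 named nuclear genes with a mean of at least 10 CPM, those most like the mean of the 5 mRNAs over the 10 groups were phb-2 (r = 0.904), amph-1 (0.889), dap-3 (0.889), ears-2 (0.879) and ptr-12 (0.874). With that mean, which includes them, COX1 had r = 0.95, ATP6 0.89, CYTB 0.87, COX2 0.59 and COX3 0.48. The nuclear genes named were picked as the highest of 5043, so their r lying above those of COX2 and COX3 carries no weight. The other mitochondrial genes had r between 0.14, for the small ribosomal RNA, and 0.69, for ND6.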

How the data were processed

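Per the file headers and the authors' text sheet, the paired reads of 50 bp were mapped to WS273 and the spike-in sequences by Bowtie 1.2.2, and reads with more than 2 alignments were dropped. HTSeq 0.11.2 and edgeR 3.24.4 are named in the submitters' processing notes; the counting mode and strand setting are not given in the sources used here. The authors deposited counts per gene for each library, which are the values analysed. Their deposited CPM table was checked only, and from their deposited comparison the log2 fold changes and p-values of the 5 genes are quoted. The deposited F score was not used. Symbols and coding lengths came from RefSeq by position on WBcel235.

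Counts were scaled by TMM and tested with edgeR 4.0.16 (R 4.3.3), with genes kept by filterByExpr, 1 term per group over all 30 libraries, the quasi-likelihood F-test and Benjamini-Hochberg adjustment over 15508 genes at 0.05. The fit was tested on simulated data. Spike-ins and unassigned reads (35.3% to 40.7% not aligned) stayed out of library sizes. The fit has no replicate block. Same-numbered libraries deviated from their group means together (r over 0.1 in all 3 pairs) between 6 and 12 h in irld (0.395 to 0.562) and N2 (0.191 to 0.364) and between 6 and 24 h in irld (0.124 to 0.161). The numbers were taken as pairs in these 3 comparisons, from the data alone, and values with the block stand beside results it changes. The block gave each number a single effect common to both strains, although the numbers were not taken to pair the strains. A block set within each strain was not fitted. Apart from the 5 mRNAs, the genes named were, for each list, up to 2 genes with the smallest p for 72 h against 6 h in N2. The 5 genes and all lists were chosen with earlier results of these data known. DESeq2 1.42.0, limma 3.58.1, other scalings, filters and left-out libraries served as alternatives.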

Additional observations from a re-analysis of the deposited data

How the results depend on the processing

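Of 108 re-estimates of the called values under other settings, 89 kept direction and call, 18 kept direction and lost the call and 1 reversed, COX3 in irld at 72 h against 6 h under spike-in scaling. Of 81 that left out a replicate number or library, 45 kept the call and 36 lost it. No alternative called a strain difference for any of the 5 mRNAs. Causes of these shifts were not tested.

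Scaled on the spike-in, the strain difference at 72 h was −0.15 for ATP6, −0.076 for CYTB, −0.16 for COX3, −0.021 for COX1 and −0.18 for COX2. The strain difference in the change from 6 to 72 h was −0.95, −0.72, −1.12, −0.83 and −0.98 in the same order. The change itself in irld was −1.52 for ATP6, −1.41 for CYTB, −1.30 for COX3 and −1.41 for COX1, and in N2 −0.18 for COX3. With this scaling 3485 genes were called at 72 h in irld (51 higher and 3434 lower), against 7223 (3193 and 4030) with TMM, and 1873 in N2 (171 and 1702), against 7919 (3588 and 4331). The median gene stood at −1.58 in irld and −0.57 in N2. At 24 h it called 1037 genes in irld and 2134 in N2, at 48 h 3213 in N2, at 12 h 0 in either strain, and over all times 3266 in irld and 3033 in N2. It called 1 gene for the strain difference at 24 h, 1 for its mean and 1 for its change with time.

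With library size alone, the change from 6 to 72 h in irld was −0.27 for ATP6, −0.32 for CYTB and −0.31 for COX1, and in N2 −0.35 for COX3. This moved the split of called genes at 72 h to 1809 higher and 6818 lower in irld, and 1928 higher and 7212 lower in N2. Relative to the summed mitochondrial mRNA, the strain difference at 48 h was −0.0077 for ATP6, −0.014 for CYTB and −0.053 for COX3. At 72 h it was −0.037 for ATP6, −0.0030 for CYTB, −0.025 for COX3 and −0.011 for COX2. Its mean was −0.050, −0.034, −0.0036 and −0.014 in that order. The difference in the change was −0.12 for COX3 and −0.0055 for COX1, and the change in irld was −0.026 for ATP6, −0.075 for CYTB and −0.059 for COX1. Left-out fits gave −0.063 to 0.51 for ATP6 in irld at 72 h, −0.067 to 0.33 for CYTB and −0.058 to 0.34 for COX1.

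The number of the 5 mRNAs called against 6 h moved as follows. The number of all genes called moved as well and stands in brackets for some settings, so these counts are no result about the 5 alone. With library size alone 2 of the 5 were called at 24 h and 3 at 48 h in irld. In N2 the number was 4 at 12 h, 3 at 24 h, 4 at 48 h and 5 at 72 h (at 72 h 7212 genes lower and 1928 higher). With the spike-in it was 1 in irld at 72 h (3485 genes). In N2 it was 0, 0, 1 and 0 at the 4 later times (0, 2134, 3213 and 1873 genes). Relative to mitochondrial mRNA it was 1 at 24 h and 1 at 72 h in irld (at 72 h 2301 genes higher and 4561 lower). In N2 it was 0 at 12 h (3254 genes), 3 at 24 h and 2 at 72 h (4148 genes higher and 2978 lower). Upper quartile scaling gave 0, 0 and 1 in N2 at 12, 24 and 48 h, and RLE and DESeq2 gave 1 in N2 at 48 h. Without a filter 1 was called in irld at 72 h. A fit of the 2 groups alone called 1 in irld at 72 h, 4 in N2 at 12 h (1579 genes) and 2 in N2 at 72 h. Over all 5 times the number was 2 with library size, 0 with the spike-in and 2 with DESeq2 in irld, and 1 with RLE, 1 with upper quartile, 4 with library size and 0 with the spike-in in N2. Leaving out a number or library gave 0 to 1 at 24 h, 1 to 2 at 48 h and 1 to 2 at 72 h in irld, 0 to 1 at 12 h, 0 to 2 at 24 h and 1 to 1 at 48 h in N2, and 0 to 2 in irld and 1 to 4 in N2 over all times.

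Over all genes at 12 h in irld, 673 calls became 423 without a filter, 1091 with DESeq2, 1157 with the replicate block and 0 in a fit of the 2 groups alone, which also gave 2857 at 24 h. At 12 h in N2, 963 calls became 3254 relative to mitochondrial mRNA, 1550 with the replicate block and 1579 in a fit of the 2 groups. With the 2 ribosomal RNAs in the denominator, ATP6 took 12.4% at 72 h and 12.95% at 6 h in N2, CYTB 13.5% and COX3 22.1% in N2 at 72 h, and COX1 26.7% in irld and 25.98% in N2 at 72 h.

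Same-numbered libraries of the 2 strains had correlations of their deviations from group means between −0.159 and 0.303, over 0.1 in 6 of 15 pairs and at no time in all 3, so the numbers were not taken to pair the strains. Within a strain, same-numbered libraries of different times had a median correlation of 0.179, over 0.1 in 46 of 60 pairs, and replicate 1 had the lowest spike-in share in 10 of 10 groups. The numbers may thus mark shared sets within a strain, although in the comparisons of 48 and 72 h with 6 h, and of 24 h with 6 h in N2, 1 of 3 pairs fell short of 0.1. With the replicate block 1 of the 5 mRNAs was called in irld at 24 h, 2 in N2 at 24 h, 2 in N2 at 72 h (CYTB at −0.38, adjusted p = 0.0267 in edgeR) and 2 in irld over all times. Without the block 30.6%, 34.2%, 51.1% and 43.1% of all tested genes were called in these tests, in the same order. Of the 30 libraries, 12 had their best match in the other strain at the same number, and within a strain the best match at another time had the same number in 89 of 120 cases. At a lowest count of 6301, depth limits these values less than the spread of 3 libraries does.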
